A study of Mus musculus with 12 samples.

Results

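The genes described here make cholesterol and fatty acids. They are 34 genes of the 18193 that the array measures through a probe set assigned to a single gene, chosen by symbol, each read from its probe set with the highest mean log2 intensity over the 12 arrays. They comprise 17 enzymes of the sterol pathway, 4 genes that regulate it or move sterol (Insig1, Srebf1, Srebf2 and Stard4), and 13 genes of fatty acid and glyceride synthesis. The study sorted skin cells by flow cytometry from mice carrying transgenes: a K5-tTA driver acting on pTRE-H2B-GFP, and a K14-CreER driver acting on Rosa-tdTomato. All groups share these alleles, doxycycline in the food at 1 g/kg for 2 weeks, which represses the GFP-tagged histone so that it is diluted as cells divide, and 1 dose of tamoxifen at 75 mg/kg, 1 week before the mice were killed at second telogen. The BL arrays number 3 LRC and 3 non-LRC, the SL arrays 2 and 2, and GL has 2, where BL, SL and GL are read as basal, spinous and granular layer and LRC as label-retaining cell from knowledge of the study (below, "with label" means LRC and "without" non-LRC). Both drivers use keratin promoters, so the label can mark only the progeny of cells in which those promoters were active, and GL was not divided by label. The labels used here give neither the sorting gates nor whether each sample is a separate animal, and every p-value therefore covers only variation among these samples, which may be technical.

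Cells build cholesterol from acetyl-CoA through mevalonate, isoprenoids, squalene and lanosterol, and fatty acids from acetyl-CoA through malonyl-CoA, with elongases and desaturases setting chain length and double bonds. The transcription factors encoded by Srebf1 and Srebf2 activate both pathways when membrane sterol is low, and Insig1 holds them back when it is high. In skin, keratinocytes use these lipids for membranes and for the lamellar lipids of the barrier, and sebocytes use them for sebum.

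SREBP proteins bind the sterol response element and act together with NF-Y, which binds CCAAT boxes, so the promoter letters of 4 members are shown: the first sterol enzyme measured here (Hmgcs1), the sterol-sensing regulator (Insig1), the fatty acid synthase (Fasn), and the member with the largest difference between BL groups (Elovl6). Each window runs 5′ to 3′ from 250 bases before a transcript start site to 50 after it, from RefSeq on GRCm38.p6. The Fasn window lies inside the extent that the annotation gives for the gene, so its site is not the outermost one. Capitals mark TCACNCCAC, the sterol response element as searched here, and CCAAT, on either strand (CCAAT on the other strand reads ATTGG). The windows lie at chr13:119690101-119690400 on the plus strand for Hmgcs1, chr5:28071162-28071461 on the plus strand for Insig1, chr11:120824498-120824797 on the minus strand for Fasn, and chr3:129532136-129532435 on the plus strand for Elovl6.
Hmgcs1: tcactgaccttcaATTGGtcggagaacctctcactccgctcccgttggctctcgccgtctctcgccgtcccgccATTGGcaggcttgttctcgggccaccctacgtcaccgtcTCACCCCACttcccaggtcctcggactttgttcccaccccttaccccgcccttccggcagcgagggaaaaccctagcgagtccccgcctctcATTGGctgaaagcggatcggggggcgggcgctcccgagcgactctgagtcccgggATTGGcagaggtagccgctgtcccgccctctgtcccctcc
Insig1: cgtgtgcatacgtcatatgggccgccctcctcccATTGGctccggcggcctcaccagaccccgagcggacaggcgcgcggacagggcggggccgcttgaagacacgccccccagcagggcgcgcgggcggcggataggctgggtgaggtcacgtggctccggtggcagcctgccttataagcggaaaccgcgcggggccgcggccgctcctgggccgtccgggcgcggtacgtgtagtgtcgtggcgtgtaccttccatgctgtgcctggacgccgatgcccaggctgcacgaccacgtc
Fasn: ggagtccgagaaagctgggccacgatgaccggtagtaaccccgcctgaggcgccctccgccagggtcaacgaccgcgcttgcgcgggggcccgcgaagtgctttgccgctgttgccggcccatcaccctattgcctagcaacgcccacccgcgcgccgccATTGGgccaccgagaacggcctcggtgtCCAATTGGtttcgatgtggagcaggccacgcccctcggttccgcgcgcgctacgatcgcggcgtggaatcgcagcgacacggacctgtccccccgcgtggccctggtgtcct
Elovl6: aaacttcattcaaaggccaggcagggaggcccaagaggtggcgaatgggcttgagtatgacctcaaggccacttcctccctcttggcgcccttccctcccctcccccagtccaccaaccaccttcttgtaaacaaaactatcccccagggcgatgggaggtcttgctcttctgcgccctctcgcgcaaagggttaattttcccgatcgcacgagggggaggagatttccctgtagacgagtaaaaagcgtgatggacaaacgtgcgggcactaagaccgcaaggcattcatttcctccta

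Hmgcs1 held 1 sterol response element, starting 137 bases before that start site, and 4 CCAAT boxes. Insig1 held 1 CCAAT box and Fasn 3, of which 1 pair overlaps on opposite strands, while the Elovl6 window held neither motif. No sterol response element overlapped a CCAAT box in these windows. Windows were found for 28 of the 34 members, 5 of which have several, and a gene was counted once if any of its windows held the motif. CCAAT was present in 14 of 14 sterol enzymes, 3 of 3 regulators and 7 of 11 fatty acid genes, 85.7% of the members against 42% of the 14452 measured genes with a window. The sterol response element was present in 1 of 28 members (3.57%, against 1.46%). All motifs were searched on both strands. The Sp1 box GGGCGG was present in 78.6% of members against 57.3%, and the E-box CACGTG in 17.9% against 10.2%. A match is a run of letters and not a shown binding site, and these shares were not tested.

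The sorted fractions were checked against keratinocyte markers and markers of other cells. Between 68.1% and 78.4% of genes lay above each array's background, the 95th percentile of 27 bacterial control probe sets (22.4 to 42.6 intensity units), and 32 of the 34 members lay above it on all 12 arrays (Fads1 on 10, Fads2 on 9). The basal keratins Krt5 and Krt14 lay above background on all 12 arrays, GL included, and so did the suprabasal keratin Krt10. Flg, a granular layer gene, was above background on 0 of 6 BL, 3 of 4 SL and 2 of 2 GL arrays. The other suprabasal markers listed (Krt1, Ivl, Lor and Dsg1a) lay above it on all 12. Krt10 read 26712 to 28834 units in BL LRC, above SL non-LRC (20515 to 21769) and GL (21161 to 22995). Krt1 was also higher in BL LRC (17001 to 23288) than in SL non-LRC (10399 to 14833), and Krt14 was highest on GL 2. Lor was highest in GL (1255 to 3476) and Itga6 lowest there (3044 to 3154), so the markers did not all follow the layer names. A bacterial hybridisation control, BioB, splits the arrays into 4 with low signal (array 1 of each BL group and both SL non-LRC arrays) and 8 with high signal. Each BL group holds 1 low array, but in SL the low arrays are the non-LRC ones, so array set and label cannot be told apart there. Signal of Uty, Kdm5d and Eif2s3y, all on the Y chromosome, was under background on BL LRC 1 and BL non-LRC 1 and above it on the other 10 arrays, so those 2 arrays share both this pattern and the low BioB signal.

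BL non-LRC 3 stands apart from the other BL arrays in these genes. It was the highest of the 6 BL arrays for 24 of the 34 members and the lowest for 5 (Sc5d, Dhcr7, Stard4, Fads2 and Thrsp), while over all genes above background on at least 2 arrays it was the highest for 17.6%. It was the highest of all 12 arrays for 15 members. The summed intensity of 11 sebocyte markers, measured of 15 listed, was also highest there, at 62703 units, against 22287 and 23370 in the other BL non-LRC arrays. It was 7152 to 9590 in BL LRC and 29216 and 31248 in GL, and in SL it was 19713 and 21730 with label and 43397 and 60233 without. Bright markers weigh most in this sum. Scd1 ran from 3286 to 23812 units over the 12 arrays and Krt79, also on the infundibulum list, from 823 to 21776. Of the 11 markers, 8, 7 and 8 lay above background on the BL LRC arrays and 10, 11 and 11 on the BL non-LRC ones. Mgst1, Plin2, Far2, Scd1 and Krt79 were above it on 3 of 3 BL LRC arrays. Pparg, a defining sebocyte regulator, lay under background in 3 of 3 BL LRC arrays, which held for no other of the 11. In BL non-LRC, Pparg was above background on 3 of 3 arrays. It was above background on 1 of 2 SL LRC, 2 of 2 SL non-LRC and 1 of 2 GL arrays. The part of sebaceous cells in the results was not tested, and results that rest on BL non-LRC 3 are given with and without it. The 7 infundibulum and isthmus markers followed the same groups, with sums of 15781 to 18015 in BL LRC, 39202 to 51028 in BL non-LRC, 37412 and 40903 in SL LRC, 91097 and 93596 in SL non-LRC, and 78759 and 87737 in GL. Adipocyte markers summed to 113 to 239 units on every array. The 6 myeloid and Langerhans markers summed to 46399 and 22401 in GL against 890 to 6724 elsewhere. Cd207, a Langerhans cell lectin, was above background on 2 of 2 GL arrays and on 3 of the other 10. The rest of the list was detected more widely: of all 12 arrays, Cd74 and H2-Aa were above background on 12, Csf1r on 10, Ptprc on 9 and Lyz2 on 8. The 4 melanocyte markers summed to 1523 and 2265 in GL against 191 to 612 elsewhere, and the 7 fibroblast markers to 1373 and 1173 against 158 to 868.

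**Figure D1:**
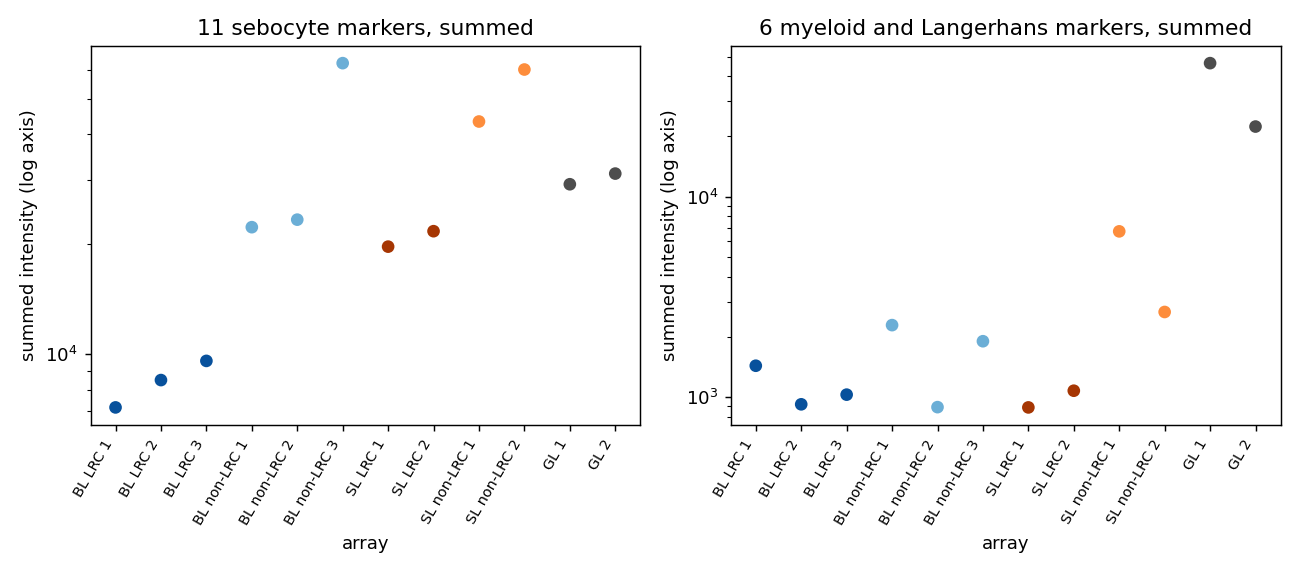
Summed intensity (log axis) of 11 sebocyte markers (left) and 6 myeloid and Langerhans markers (right) on each of the 12 arrays, 1 point per array. The sebocyte sum was lowest on the 3 BL LRC arrays, 7152 to 9590 units, and highest on BL non-LRC 3 at 62703, and the myeloid sum was highest on the 2 GL arrays.

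Across the 5 groups, 15 of the 34 members differed in limma's F test (adjusted p under 0.05), 44.1%, against 16.9% of all genes tested. They were 9 of 17 sterol enzymes, 1 of 4 regulators (Stard4) and 5 of 13 fatty acid genes (Elovl6, Me1, Fads1, Scd2 and Elovl5). In the 4 pairwise comparisons below, 12 members were called at least once. The spread of a member over the 12 arrays ran from 1.70-fold between the highest and lowest array for Ebp, a sterol isomerase, and 1.76-fold for Srebf2, to 39.7-fold for Elovl6 and 72.5-fold for Fads1, whose lowest arrays are under background.

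**Figure D2:**
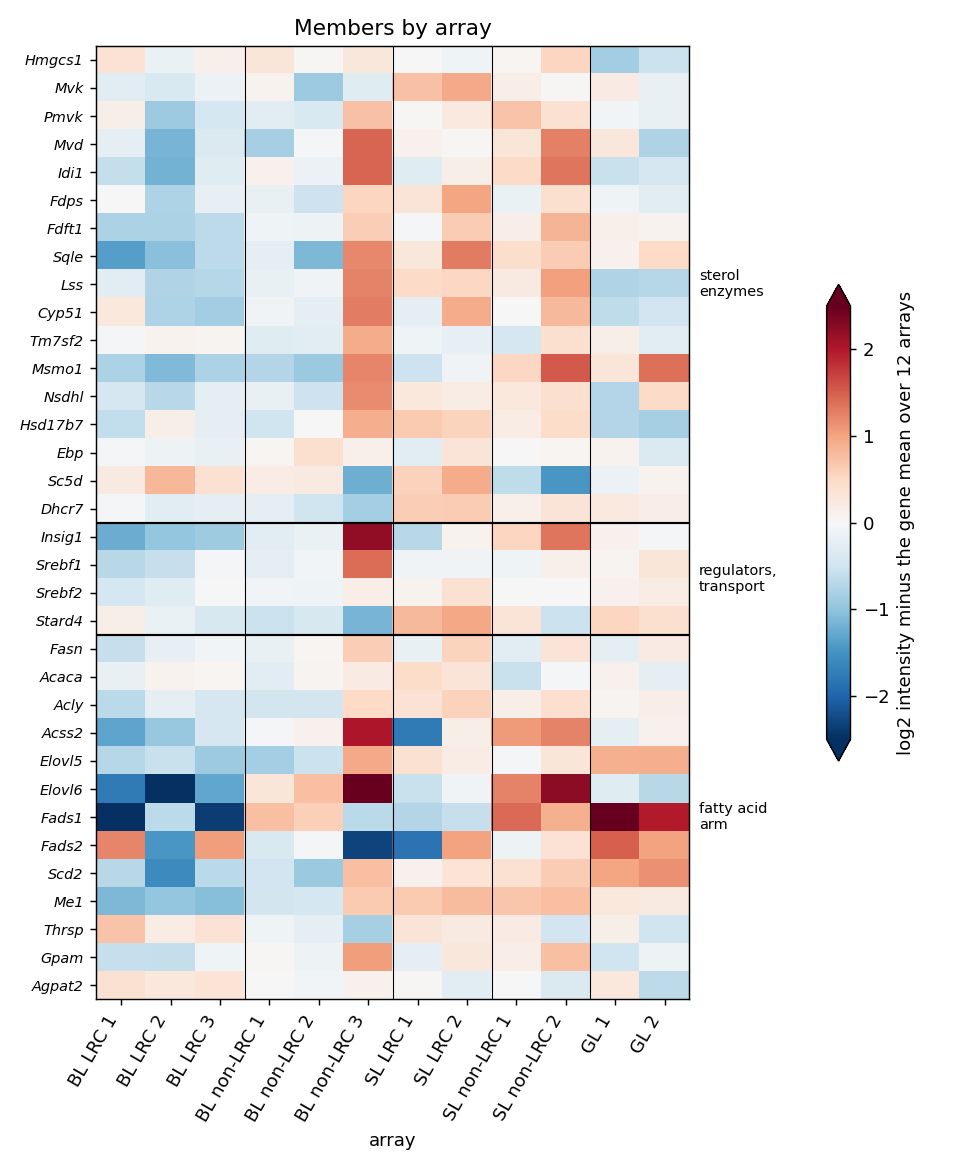
Log2 intensity of the 34 members (rows) on the 12 arrays (columns), each minus the gene's mean over the arrays; colours saturate at the ends of the scale. BL non-LRC 3 is the highest of the 12 arrays for 15 members, and the BL LRC arrays are low for Elovl6 and Insig1.

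Between the label classes of the basal layer, the fatty acid elongase Elovl6 was the 1 of 34 members that differed, lower in BL LRC, while 1.53% of all genes were called. In total RNA from sorted cells, fewer cells of a type and less RNA per cell cannot be told apart. Elovl6, which lengthens saturated and monounsaturated chains, read 495, 283 and 680 units on the BL LRC arrays and 2076, 2823 and 11222 on the BL non-LRC ones, then in SL 1142 and 1588 with label and 3973 and 7932 without, and in GL 1361 and 1042. Every BL LRC array lay below every BL non-LRC array, and the SL LRC arrays lay below the SL non-LRC arrays. The fall of Elovl6 in BL LRC was -3.14 ± 0.47 on the log2 scale (SE, 3 arrays each, adjusted p = 0.00129). The call held when each BL array was left out in turn (6 of 6 fits, highest adjusted p = 0.0108), and without BL non-LRC 3 the difference was -2.41 (adjusted p = 0.00149). The other Elovl6 probe sets gave -2.89 and -0.16. With it moved the sebocyte markers, 9 of 11 called lower in BL LRC (median of the 11 -3.68), among them Mgst1 (-4.85, adjusted p = 3.54e-05), and the infundibulum and isthmus markers, 6 of 7 called lower (median -1.36). The part of those cells in the Elovl6 result was not tested.

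Of the 34 members, 27 had a BL difference below 0, and their median was -0.51, against 0.046 over all genes. Without BL non-LRC 3 the median was -0.12, with 22 below 0 and Elovl6 still called. By arm, the median was -0.43 over 17 sterol enzymes and -0.58 over 13 fatty acid genes. The groups did not overlap for 8 members that were lower and 4 that were higher in BL LRC, 12 of 34, where 16.4% of all genes had groups that did not overlap. The higher members were Sc5d, Stard4, Thrsp and Agpat2.

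Insig1, the sterol-regulated anchor of the SREBP system, read 243, 291 and 308 units on the BL LRC arrays and 468, 510 and 2668 on the BL non-LRC ones, then in SL 355 and 605 with label and 822 and 1445 without, and in GL 613 and 548. All BL LRC arrays lay below all BL non-LRC arrays, and BL non-LRC 3 lay above every other array. The BL difference was -1.62 ± 0.48 log2 units (SE, adjusted p = 0.136), and -0.81 without BL non-LRC 3 (adjusted p = 0.405).

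Srebf1, the SREBP gene tied mainly to fatty acid synthesis, read 753, 812 and 1181 units on the BL LRC arrays and 1044, 1170 and 3219 on the BL non-LRC ones, then in SL 1146 and 1145 with label and 1137 and 1322 without, and in GL 1283 and 1494. Apart from BL non-LRC 3 all values lay between 753 and 1494, and the BL groups overlapped. Its BL difference was -0.82 ± 0.32 (SE, adjusted p = 0.317), and -0.30 without BL non-LRC 3. Srebf2, the SREBP gene tied mainly to sterol synthesis, read 2488, 2741 and 3383 units on the BL LRC arrays and 3225, 3104 and 3753 on the BL non-LRC ones, then in SL 3554 and 4373 with label and 3325 and 3380 without, and in GL 3615 and 3814. Its values overlapped between the BL groups, and neither factor was called in any comparison.

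In the fatty acid arm, Fasn, the synthase that builds palmitate, read 1229, 1583 and 1747 units on the BL LRC arrays and 1616, 1893 and 2797 on the BL non-LRC ones, then in SL 1616 and 2708 with label and 1535 and 2297 without, and in GL 1558 and 2110. The groups overlapped throughout, and the differences were between -0.44 (BL label, adjusted p = 0.547) and 0.18 (SL vs BL). Acaca, the carboxylase that makes malonyl-CoA, read 1263, 1537 and 1496 units on the BL LRC arrays and 1178, 1510 and 1664 on the BL non-LRC ones, then in SL 1965 and 1793 with label and 976 and 1393 without, and in GL 1558 and 1226. Its SL groups did not overlap, with SL LRC higher by 0.69 ± 0.24 (SE, n = 2 and 2, adjusted p = 0.133). A second Acaca probe set, above background on all 12 arrays, gave -0.038 there. Neither gene was called in any of the 4 comparisons.

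Several further members had low p without a call in BL, named after their values were seen. Me1, which supplies NADPH, was at -0.97 ± 0.25 (SE, adjusted p = 0.063). Fdft1, squalene synthase, was at -0.87 ± 0.23 (adjusted p = 0.0823), although a second probe set above background on all arrays gave -0.030. Fads1, a desaturase of polyunsaturated chains, was at -2.36 ± 0.65 (adjusted p = 0.0952), with 1 of 3 BL LRC arrays above background. Its other probe set, above background on 7 arrays, gave 0.77, so both size and direction are uncertain. Idi1, the isoprenoid isomerase, was at -1.16 ± 0.34 (adjusted p = 0.127). Without BL non-LRC 3 the Me1, Fdft1 and Idi1 differences were -0.60, -0.63 and -0.67, each still below 0. With replicate number as a term in limma, an alternative described below, Fdft1 (adjusted p = 0.0335), Idi1 (0.0206) and Insig1 (0.0301) were called.

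**Figure D3:**
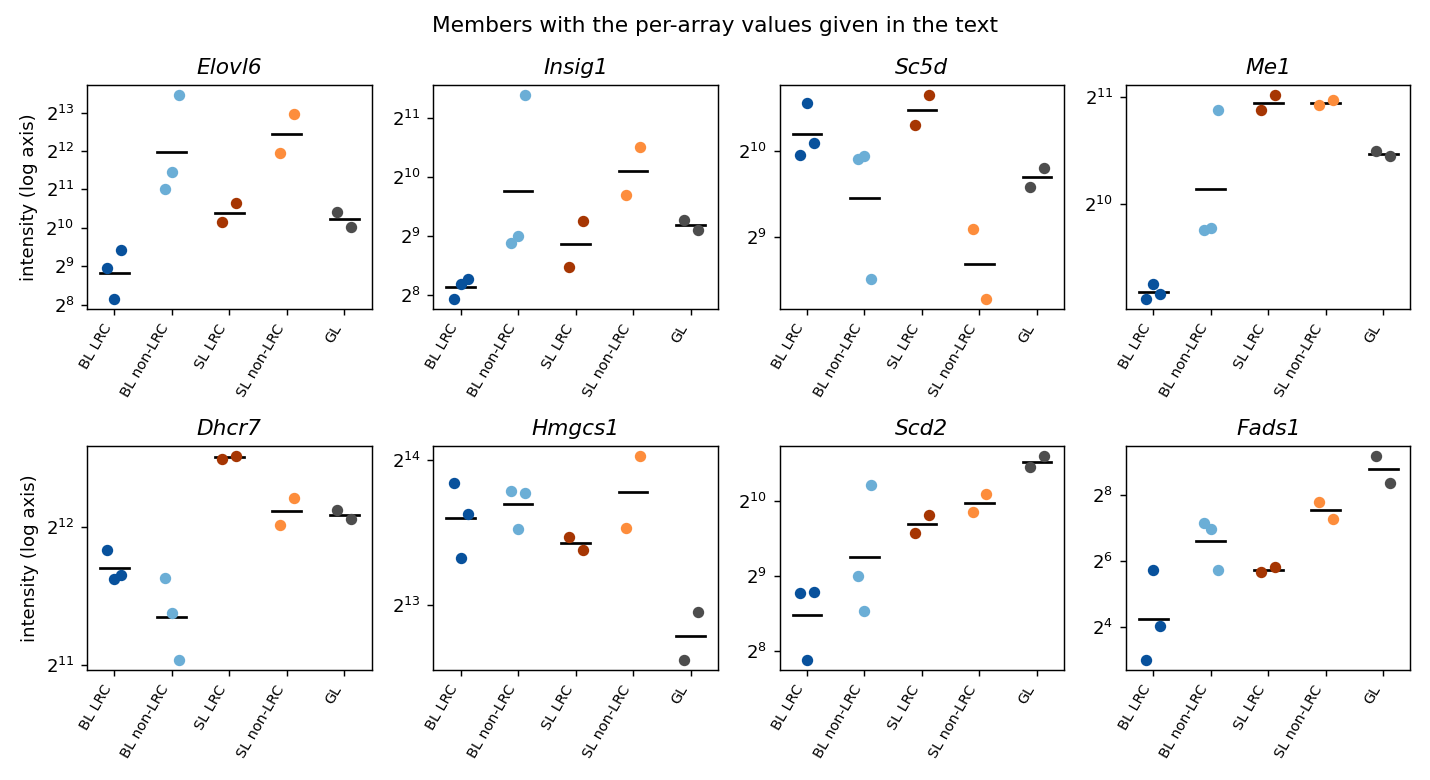
Intensity (log axis) of 8 members on each array, 1 point per array, with a bar at the mean of the log2 values of each group. Elovl6 and Insig1 are lower in BL LRC than in BL non-LRC on every array, Me1 and Dhcr7 are higher in SL, and Hmgcs1 is lowest in GL at 6319 and 7938 units.

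Between the label classes of the spinous layer, Sc5d, the sterol desaturase that makes 7-dehydrocholesterol, was the 1 of 34 members called, higher in SL LRC, while 4.19% of all genes were called (1.49% higher, 2.7% lower). It read 1264 and 1605 units in SL LRC and 545 and 310 in SL non-LRC. In BL it read 989, 1509 and 1094 in LRC and 956, 980 and 363 in non-LRC, and in GL 765 and 894. Both SL LRC arrays lay above both SL non-LRC arrays, and BL non-LRC 3 and SL non-LRC 2 held the lowest values. The SL difference was 1.79 ± 0.41 on the log2 scale (SE, 2 arrays each, adjusted p = 0.0174), and 2 other Sc5d probe sets gave 2.27 and 2.32. The call was lost in 3 of 4 fits that leave out an SL array (highest adjusted p = 0.22, without SL non-LRC 2) and with array set as a term (adjusted p = 0.0941). With that term the difference was 1.95, and only the BL groups, which hold both array sets, can fix the term. BioB signal was high on both SL LRC arrays and low on both SL non-LRC arrays, and 10 of 11 sebocyte markers were below 0 in SL LRC, 6 of them called (median -3.40). The infundibulum and isthmus markers were below 0 for 7 of 7, with 6 called (median -1.63). Melanocyte markers were called lower for 2 of 4 and myeloid and Langerhans markers for 3 of 6. The part of array set or of these cells in the Sc5d result was not tested.

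Elovl6 was at -2.06 ± 0.57 for the SL label (SE, adjusted p = 0.0537), short of a call. Its other probe sets gave -2.48 and 0.56. Acss2, which makes acetyl-CoA from acetate and is named after its values were seen, was at -1.96 ± 0.64 (adjusted p = 0.105). Its other probe sets gave -1.16 and 0.31, so for both genes 1 probe set had the opposite sign. Without BL non-LRC 3, whose spread enters the shared error, 5 members were called in SL: Sc5d higher, and Elovl6, Acss2, Msmo1 and Insig1 lower. That count comes without the share of all genes called in the same fit. The median over the members was -0.076 against -0.0013 over all genes. Centring each array on its median moved the all-gene median to 0.12 and the members' median to 0.050, so their sign depends on the scaling, and it moved the genes called higher from 271 of 763 to 386 of 789. The groups did not overlap for 18 of 34 members, where 47.5% of all genes had groups that did not overlap.

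The label effect was not shown to differ between the layers. With limma, 0 of 34 members and 0 of 18193 genes passed for the SL effect minus the BL effect, while an unadjusted p under 0.05 was reached by 2 members (Me1 and Acaca) and by 1291 of all genes. The smallest adjusted p of a member was 0.644, for Me1, whose label difference was 0.0018 in SL and -0.97 in BL. The difference was above 0 for 27 of 34 members, with a median of 0.48 against -0.045 over all genes, and 0.20 with 22 above 0 without BL non-LRC 3, where 6 genes were called and no member. For Elovl6 it was 1.08.

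From the basal to the spinous layer, 7 of 34 members rose and none fell, while 5.03% of all genes were called, 2.83% higher and 2.2% lower. They were 4 sterol enzymes (Mvk, Fdft1, Sqle and Dhcr7), the sterol carrier Stard4, and 2 suppliers of fatty acid synthesis (Acly and Me1). Of all members, 28 had a difference above 0, with a median of 0.53 against 0.0025 over all genes. The comparison sets the mean of both SL groups against the mean of both BL groups.

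Among the sterol enzymes, Mvk, mevalonate kinase, read 514, 476 and 553 units on the BL LRC arrays and 658, 329 and 498 on the BL non-LRC ones, then in SL 1027 and 1190 with label and 694 and 628 without, and in GL 707 and 542. The SL LRC arrays lay above every BL array, whereas SL non-LRC 2 lay below BL non-LRC 1. Mvk rose by 0.79 ± 0.20 (SE, n = 4 and 6, adjusted p = 0.0291). Fdft1, squalene synthase, read 1077, 1073 and 1174 units on the BL LRC arrays and 1727, 1705 and 2837 on the BL non-LRC ones, then in SL 1802 and 2886 with label and 2075 and 3357 without, and in GL 2032 and 1974. BL non-LRC 3 alone among the BL arrays reached the SL range, and Fdft1 rose by 0.71 ± 0.18 (adjusted p = 0.0322).

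Sqle, squalene epoxidase and a rate-limiting step, read 326, 411 and 543 units on the BL LRC arrays and 720, 390 and 1964 on the BL non-LRC ones, then in SL 1036 and 2094 with label and 1153 and 1331 without, and in GL 912 and 1198. Only BL non-LRC 3 overlapped the SL arrays. Sqle rose by 1.21 ± 0.34 (SE, adjusted p = 0.0469), and by 1.52 without that array (adjusted p = 0.00104). Dhcr7, which reduces 7-dehydrocholesterol to cholesterol, read 3646, 3150 and 3220 units on the BL LRC arrays and 3176, 2662 and 2101 on the BL non-LRC ones, then in SL 5772 and 5849 with label and 4132 and 4743 without, and in GL 4460 and 4252. Every SL array lay above every BL array, which held for 1 of 34 members and 4.12% of all genes in either direction. Dhcr7 rose by 0.78 ± 0.12 (adjusted p = 0.000896).

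Stard4, which carries sterol between membranes, read 877, 706 and 595 units on the BL LRC arrays and 544, 595 and 353 on the BL non-LRC ones, then in SL 1377 and 1547 with label and 984 and 540 without, and in GL 1144 and 1043. SL non-LRC 2 fell among the BL arrays and the other SL arrays lay above them. Stard4 rose by 0.81 ± 0.21 (SE, adjusted p = 0.0302), and 2 other probe sets gave 0.88 and 1.03.

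In the fatty acid arm, Acly, which makes cytosolic acetyl-CoA from citrate, read 3010, 4110 and 3591 units on the BL LRC arrays and 3482, 3496 and 6720 on the BL non-LRC ones, then in SL 6119 and 7164 with label and 5267 and 6395 without, and in GL 5002 and 5388. Every SL array lay above the BL arrays other than BL non-LRC 3. Acly rose by 0.66 ± 0.17 (SE, adjusted p = 0.0289). Me1, the malic enzyme, read 551, 607 and 569 units on the BL LRC arrays and 864, 877 and 1888 on the BL non-LRC ones, then in SL 1885 and 2076 with label and 1943 and 2009 without, and in GL 1441 and 1399. Its SL arrays lay close together and reached down to BL non-LRC 3 alone. Me1 rose by 1.30 ± 0.19 (adjusted p = 0.000559), the largest difference of a called member here.

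Scd2, the stearoyl-CoA desaturase of many epithelia, read 439, 235 and 444 units on the BL LRC arrays and 512, 372 and 1194 on the BL non-LRC ones, then in SL 763 and 904 with label and 929 and 1101 without, and in GL 1406 and 1562. Both GL arrays were the highest of the 12, and apart from BL non-LRC 3 the BL arrays lay below the SL arrays. Scd2 was at 0.97 ± 0.28 in SL vs BL (SE, adjusted p = 0.0527), short of a call.

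The 7 calls were uneven in strength. Me1 and Dhcr7 stayed called in 10 of 10 fits that leave out a BL or SL array. The other calls held in 2 of 10 such fits for Acly and Sqle, 3 for Mvk and Fdft1, and 4 for Stard4, so leaving out any BL or SL array other than BL non-LRC 3 left 2 to 4 members called. Without BL non-LRC 3, 14 members were called, all higher, with a median of 0.70, and Stard4 dropped out (adjusted p = 0.0518). Leaving that array out changes the error of every gene, and the share of all genes called without it is not given here. The count of 14 is therefore not read as a result about the members. Within the 8 arrays of high BioB signal, 4 members were called, again with no share of all genes given, and the median was 0.29. Those arrays hold no SL non-LRC array, so this fit sets SL LRC alone against both BL groups and changes label class as well as array set. Split by label, a comparison added after seeing the data, SL LRC against BL LRC gave 5 members called higher (Mvk, Fdft1, Sqle, Dhcr7 and Me1, where 1.41% of all genes were called higher and 1.41% lower). SL non-LRC against BL non-LRC gave 1, Dhcr7, where 1.17% of all genes were called higher and 0.39% lower. Of the 11 sebocyte markers 1 was called, higher (Krt79), and their median was 0.61. Of the 7 infundibulum and isthmus markers 5 were called, all higher, with a median of 1.05. The part of those cells in the 7 calls was not tested.

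**Figure D4:**
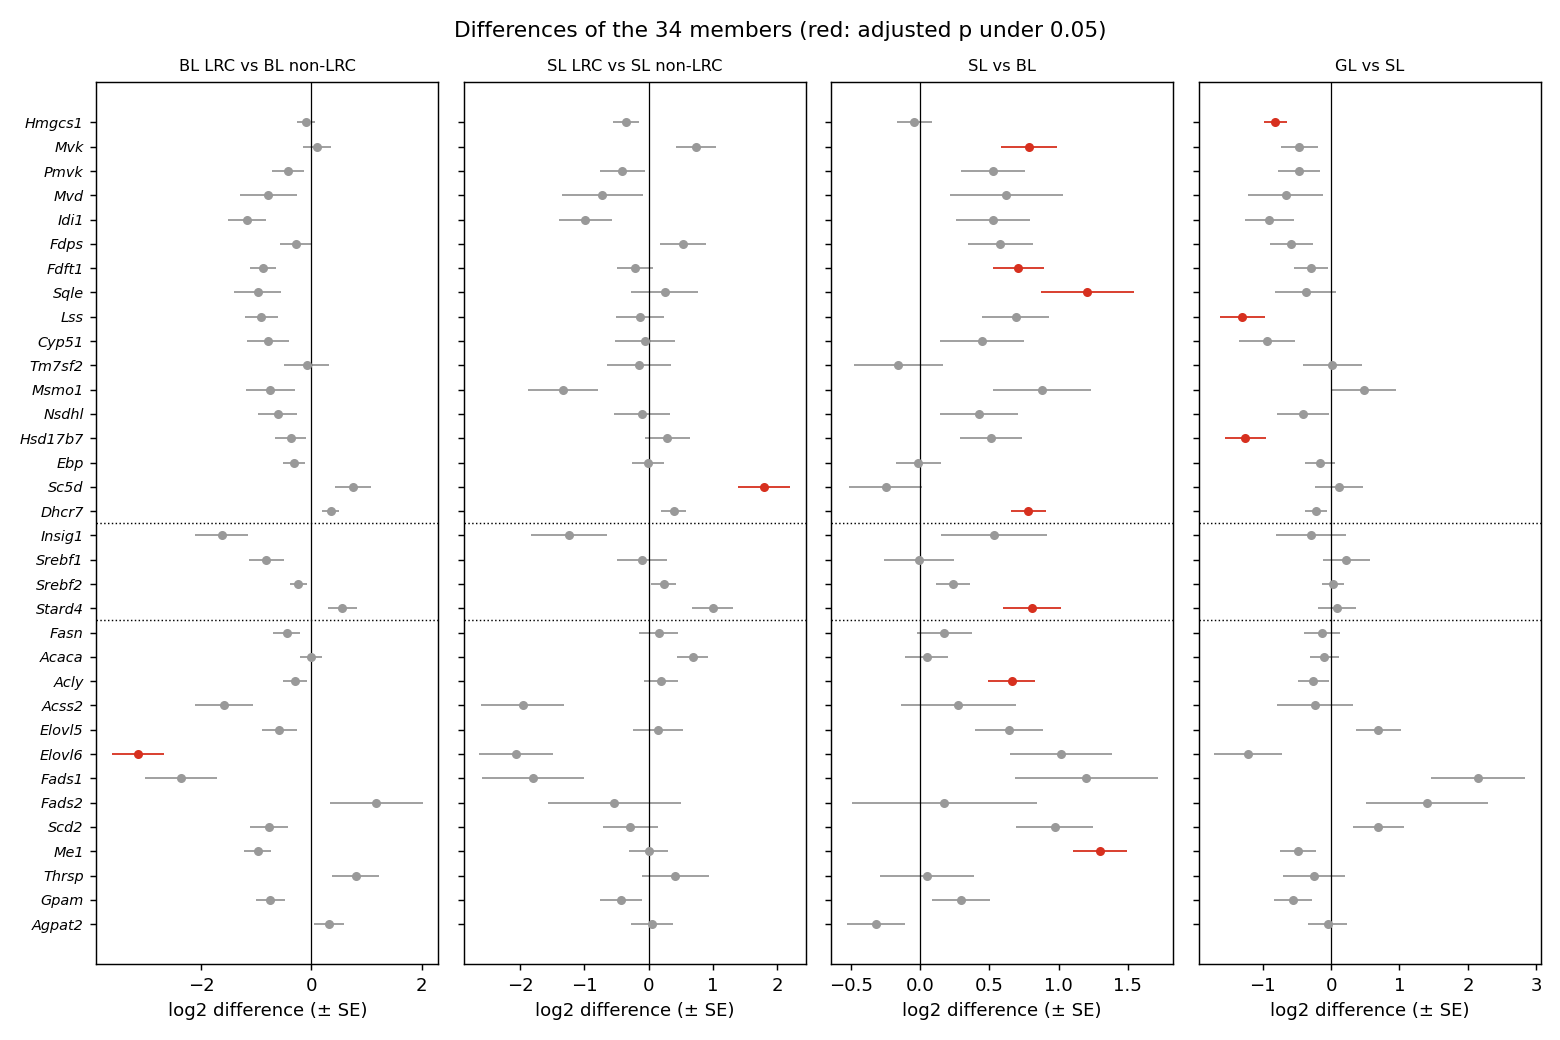
Log2 difference of each of the 34 members in 4 comparisons, with bars of 1 SE, and red where the adjusted p is under 0.05. In SL vs BL 28 of 34 points lie above 0 and 7 are red, and in GL vs SL the 3 red points are sterol enzymes below 0.

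From the spinous layer to GL, 3 of 34 members fell and none rose, while 8.3% of all genes were called, 3.91% lower and 4.39% higher. All 3 are sterol enzymes: Hmgcs1, Lss and Hsd17b7. Of the 17 sterol enzymes, 14 had a difference below 0, with a median of -0.47, whereas the 13 fatty acid genes had a median of -0.13 and 4 above 0. The median over all genes was -0.028. Centring each array on its median moved the all-gene median to -0.19, the sterol median to -0.63 and the fatty acid median to -0.29, with 3 members still called, and the genes called higher went from 799 of 1510 to 665 of 1890.

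Hmgcs1, the synthase that makes HMG-CoA, read 14669, 10236 and 12633 units on the BL LRC arrays and 14116, 11798 and 13995 on the BL non-LRC ones, then in SL 11358 and 10668 with label and 11845 and 16670 without, and in GL 6319 and 7938. Both GL arrays were the lowest of the 12, and the BL and SL arrays overlapped. Hmgcs1 fell by 0.81 ± 0.17 in GL (SE, 2 arrays against 4, adjusted p = 0.00583), and 4 other probe sets gave -0.65 to -1.54. This is the member whose window holds the sterol response element shown above.

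Lss, lanosterol synthase, read 1253, 911 and 931 units on the BL LRC arrays and 1341, 1438 and 3604 on the BL non-LRC ones, then in SL 2120 and 2178 with label and 1784 and 3118 without, and in GL 904 and 934. The GL arrays lay below every SL array and close to the BL LRC arrays, GL 1 being the lowest of the 12. Lss fell by 1.29 ± 0.32 (SE, adjusted p = 0.0189). Hsd17b7, a ketosteroid reductase of the demethylation steps, read 871, 1472 and 1131 units on the BL LRC arrays and 946, 1315 and 2502 on the BL non-LRC ones, then in SL 2099 and 1967 with label and 1508 and 1825 without, and in GL 798 and 746. Its GL arrays were the lowest of the 12, and Hsd17b7 fell by 1.25 ± 0.30 (adjusted p = 0.0141).

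The calls held in 5 of 6 fits that leave out a GL or SL array for Hmgcs1, 4 of 6 for Hsd17b7 and 3 of 6 for Lss. Without GL 1 no member was called, and without GL 2 the count was 1. Without BL non-LRC 3 it was 6, of which 1, Elovl5, was higher. These counts come without the share of all genes called in the same fits. GL against SL LRC alone and against SL non-LRC alone, comparisons added after seeing the data, each gave 3 members. In the first they were Hsd17b7 and Lss lower and Fads1 higher by 3.04 (adjusted p = 0.0222), where 4.03% of all genes were called lower and 5.34% higher. In the second they were Hmgcs1, Lss and Elovl6 lower, where 2.83% were called lower and 1.98% higher. Elovl6 was at -2.24 there (adjusted p = 0.0324) and at -0.18 against SL LRC. With GL moved the myeloid and Langerhans markers, 5 of 6 called higher (median 4.43), 2 of 4 melanocyte markers called higher (median 3.16) and 2 of 7 infundibulum and isthmus markers called higher (median 0.77). The 7 fibroblast markers were above 0 with none called (median 0.78), and 2 of 11 sebocyte markers were called lower (median -0.29). The part of these cells in the differences was not tested.

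In the fatty acid arm 4 of 13 genes had a difference above 0 in GL, and none was called. The groups did not overlap for Fads1, Elovl5 and Scd2, all higher in GL, and for 1 fatty acid gene that was lower (Me1), beside 6 sterol enzymes that were lower and 0 that were higher. In all that was 10 of 34 members, where 25.9% of all genes had groups that did not overlap. Fads1, a gene chosen after its values were seen, read 581 and 331 units in GL against 50.2 and 56.2 in SL with label and 222 and 154 without, and its difference was 2.14 ± 0.69 (SE, adjusted p = 0.0676). In BL it read 8.02, 53.3 and 16.1 in LRC and 141, 126 and 52.7 in non-LRC. Elovl5, the elongase of polyunsaturated chains, was at 0.69 ± 0.33 (adjusted p = 0.25). Scd2 was at 0.69 ± 0.37 (adjusted p = 0.313).

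The sterol and fatty acid arms were then set against each other within each array, as the median of the gene-centred log2 values of 17 sterol enzymes minus that of 13 fatty acid genes, a description with no test. In the sterol arm the group means were -0.41 ± 0.29 in BL LRC against 0.17 ± 0.64 in BL non-LRC (SD, 3 arrays each), then 0.31 ± 0.29 with label and 0.31 ± 0.20 without in SL, and -0.17 ± 0.15 in GL (SD, 2 arrays each). In the fatty acid arm they were -0.56 ± 0.13, 0.12 ± 0.43, 0.15 ± 0.19, 0.29 ± 0.18 and 0.155 ± 0.022 in the same order. Both arms were low in BL LRC and both were high on BL non-LRC 3, at 0.91 and 0.61.

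The sterol minus fatty acid difference by array was 0.43, -0.16 and 0.18 on the BL LRC arrays and -0.00054, -0.15 and 0.31 on the BL non-LRC ones. In SL it was 0.082 and 0.23 with label, 0.0085 and 0.039 without, and -0.20 and -0.44 in GL. The GL arrays held the lowest values of the 12. The BL groups overlapped each other and both SL groups, while the SL arrays with label lay above those without. Between groups it differed by 0.097 for the BL label, 0.13 for the SL label and -0.011 for SL vs BL, each under the pooled SD between arrays of 0.21. For GL vs SL it was -0.41, with -0.51 to -0.24 over the alternatives, the smaller size without GL 2.

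**Figure D5:**
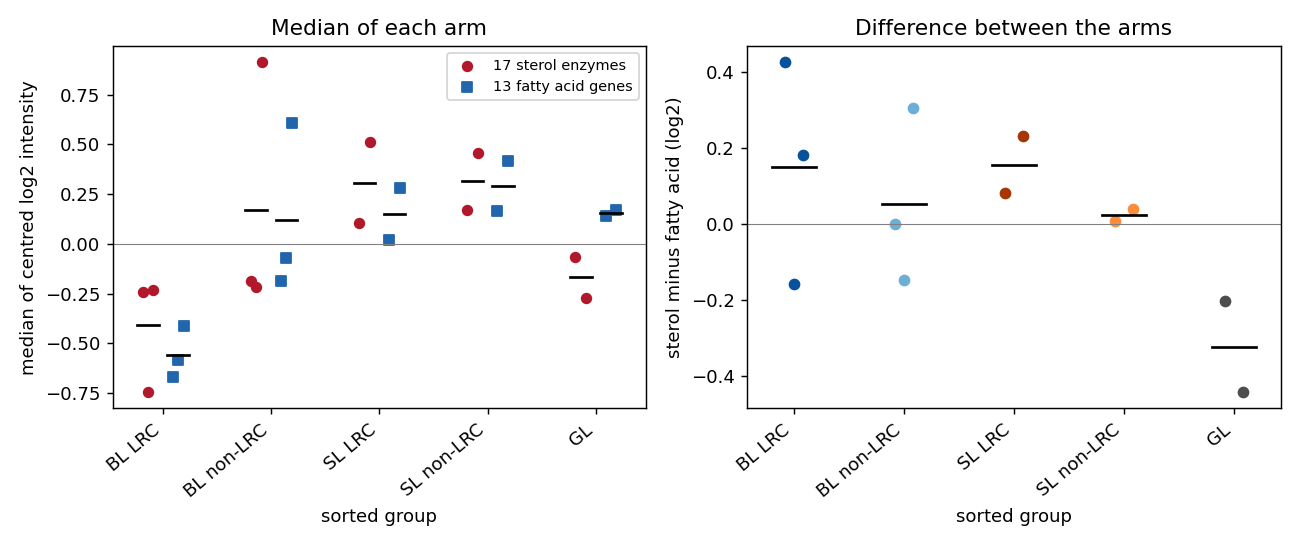
Left, the median gene-centred log2 intensity of the 17 sterol enzymes (circles) and the 13 fatty acid genes (squares) on each array, by sorted group, with bars at group means. Right, the sterol median minus the fatty acid median on each array, where the GL arrays at -0.20 and -0.44 are the lowest of the 12.

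The remaining members gave no call in any of the 4 comparisons. Among sterol enzymes, Pmvk, Mvd and Idi1 of the mevalonate and isoprenoid steps were at 0.53, 0.62 and 0.53 in SL vs BL and at -0.47, -0.66 and -0.90 in GL vs SL. Fdps, which makes farnesyl diphosphate, was at 0.58 and -0.58 in the same pair. Cyp51 and Nsdhl of the demethylation steps were at 0.45 and 0.42 in SL vs BL and at -0.93 and -0.41 in GL vs SL. Msmo1, the methyl sterol oxidase, was at 0.88 and 0.48. Tm7sf2 and Ebp lay between -0.31 and 0.020 in all 4 comparisons.

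In the fatty acid arm, Gpam and Agpat2, acyltransferases of glyceride synthesis, were at -0.74 and 0.32 for the BL label. Thrsp, a lipogenic accessory gene, was at 0.81 there. Fads2, the other desaturase of polyunsaturated chains, was at 1.18 for the BL label, although its 3 probe sets ran from -0.097 to 1.18 there and it was above background on 9 of 12 arrays.

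Of 43 further genes of the same pathways listed, 35 were measured: 8 of sterol handling, 5 of sterol efflux and 22 of fatty acid and glyceride metabolism. In BL LRC 4 of 35 were called lower and none higher (median -0.41), where 1.23% of all genes were called lower. Acsl4, which activates polyunsaturated fatty acids, fell by 2.39 ± 0.34 (SE, adjusted p = 0.000968), and Apoe, the lipoprotein acceptor of cholesterol, fell by 0.69 ± 0.11 (adjusted p = 0.00322). Scd1, the desaturase of sebaceous glands, read 5122, 6552 and 7601 units on the BL LRC arrays and 9589, 11304 and 23812 on the BL non-LRC ones. It fell by 1.11 ± 0.27 (adjusted p = 0.0496), a call lost without BL non-LRC 3 (adjusted p = 0.197). Elovl3 was lower too, with 1 of 3 BL LRC arrays above background, and its call was lost in 4 of 6 such fits (highest adjusted p = 0.22, without BL non-LRC 3). Scd1 and Elovl3 are also on the sebocyte list.

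In SL LRC 5 of 35 were called lower and none higher, where 2.7% of all genes were called lower. Acsl4 fell by 3.87 ± 0.42 (SE, adjusted p = 0.000106), Insig2, the isoform of Insig1 that is less tied to SREBP activity, by 1.77 ± 0.22 (adjusted p = 0.00024), Apoe by 0.99 ± 0.14 and Agpat1 by 1.35 ± 0.25. In SL vs BL 5 rose and 2 fell, where 2.83% of all genes were called higher and 2.2% lower. Agpat3, an acyltransferase of phospholipid synthesis, rose by 1.30 ± 0.14 (adjusted p = 3.2e-05), Pnpla3 by 1.23 ± 0.22 and Insig2 by 0.85 ± 0.14, and Agpat1 fell by 0.75 ± 0.16. Within the arrays of high BioB signal, which hold no SL non-LRC array, Insig2 was at -0.15 (adjusted p = 0.718). Split by label, its difference from BL to SL was 0.29 with label and 1.41 without. Array set and label cannot be told apart here.

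In GL vs SL 6 rose and 1 fell, where 4.39% of all genes were called higher and 3.91% lower. Insig2 read 1270 and 1435 units in SL with label, 5018 and 4213 without, and 9165 and 8327 in GL. GL lay above all SL arrays, and the SL groups lay far apart. Insig2 rose by 1.81 ± 0.19 in GL (SE, adjusted p = 1.8e-05), Apoe by 0.75 ± 0.12 and Agpat1 by 1.05 ± 0.22. Scd1 read 9527 and 11979 units in SL with label, 11342 and 18534 without, and 3286 and 4145 in GL. Its GL arrays were the lowest of the 12, and Scd1 fell by 1.75 ± 0.29 (adjusted p = 0.000889), where Scd2 of the members was at 0.69.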

How the data were processed

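Values of 45101 probe sets on 12 Affymetrix arrays were used. RNA was amplified from 5 ng with the NuGEN Ovation Pico WTA and Encore Biotin kits, per the labels' protocols. The deposited values are linear intensity per probe set; recomputing showed that the authors had brought each array to a trimmed mean of 500 (trim 2%). The summarisation software is not stated in the labels used. Values at or near the floor of 1 were kept, log2 was taken with nothing added, and arrays number 2 or 3 per group, which limits the precision. Of the probe sets, 34945 had 1 gene in the platform annotation, 932 several and 9160 none, leaving 18193 genes.

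limma 3.58.1 in R 4.3.3 was fitted on 5 group means over all arrays, its prior variance following mean intensity, and p-values were adjusted by Benjamini-Hochberg over all genes. "Called" means an adjusted p under 0.05, and SE is limma's moderated standard error. The fit was tested on simulated data. Members, lists and tests were chosen with earlier results of these data known. Genes with per-array values are up to 6 called members of smallest p per comparison and Hmgcs1, Sqle, Srebf1, Srebf2, Insig1, Fasn, Acaca and Scd2; of the other pathway genes, up to 4 called of smallest p per comparison with Scd1. Promoter windows come from RefSeq, GRCm38.p6. Figures used Python 3.11.15, pandas 2.3.3 and matplotlib 3.10.9. Alternatives covered scaling, offset, filters, probe sets, array sets, the replicate block, the trend and leaving out each array.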

Additional observations from a re-analysis of the deposited data

How the results depend on the processing

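Of the named single-gene results under their alternatives, 936 kept direction and side of the threshold, 118 lost a call, 37 gained one and 2 changed sign. Those are Fdft1 for the BL label (0.35 with all probe sets averaged, adjusted p = 0.643) and Insig2 in SL vs BL (-0.15 with high-BioB arrays alone, adjusted p = 0.718). The latter fit holds SL LRC but no SL non-LRC array. Counts of called members follow in the order BL label (1), SL label (1), SL vs BL (7) and GL vs SL (3). Without the mean-variance trend they were 0, 0, 2 and 0, and 3 in place of 15 for any difference. With all probe sets averaged, BL gave 2, SL vs BL 4 and GL vs SL 5. With an array-set term, BL gave 2 and SL 0. High-BioB arrays alone, where the SL side is SL LRC only, gave 4 in SL vs BL. Fitting only the groups compared gave 2 in SL and 7 in GL vs SL. A filter on genes above background on 2 arrays gave 2 in SL, as did probe sets not marked as cross-hybridising, which moved the SL arm difference from 0.13 to 0.44. SL non-LRC against BL non-LRC, added after seeing the data, gave 1. The cause of these shifts was not tested. Apart from the fits split by label, these counts come without the share of all genes called, as do those below. They are therefore not read as shifts particular to the members.

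Leaving out 1 array gave 1 to 3 members in BL, 0 to 5 in SL, 2 to 14 in SL vs BL, 0 to 6 in GL vs SL and 9 to 18 for any difference. In BL the count was 3 without BL non-LRC 1 and 2 without BL LRC 2 or BL non-LRC 2. In SL it was 0 without SL LRC 1 or SL non-LRC 2, 2 without SL non-LRC 1, BL LRC 2 or BL non-LRC 1, and 5 without BL non-LRC 3. In SL vs BL it was 14 without BL non-LRC 3, 2 without SL LRC 2, 4 without BL non-LRC 1 or SL LRC 1, and 3 without any other BL or SL array. In GL vs SL it was 0 without GL 1, 1 without GL 2 and 6 without BL non-LRC 3. For any difference it was 9 without either GL array.

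The replicate numbers in the titles were not taken to pair the samples, since no label ties them to an animal or batch. Same-numbered BL arrays correlated at 0.13, 0.073 and 0.080, and differently numbered BL arrays at -0.079 to 0.0019. Same-numbered SL arrays were at -0.027, but with 2 arrays per group every SL pair has that size, so SL cannot decide. The BL arrays numbered 1 share low BioB signal and Y-linked genes under background, which the block also absorbs. In BL 6 of 6 samples correlated best with their own number, a hint from the data only. With the replicate block the counts were 6, 3, 12 and 5, so the counts depend on whether the numbers pair, which is not known. The low array number, and signal near background for Fads1 and Fads2, limit what could be detected.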

Other observations

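Where a called member had other probe sets above background on all 12 arrays, each of them had the sign of the probe set used, though not always its size. For Elovl6 in BL the 2 others ran from -2.89 to -0.16, for Acly in SL vs BL the 3 others from 0.38 to 0.78, and for Hsd17b7 in GL vs SL the 2 others from -2.17 to -1.08. Sqle and Dhcr7 had no other such probe set.

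Sc5d, Dhcr7 and Stard4 (with Fads2 and Thrsp) were lowest in BL non-LRC 3 among the 6 BL arrays. The values of the first 3 were 363, 2101 and 353 units there, against 956 to 1509, 2662 to 3646 and 544 to 877 on the other BL arrays. In SL these 3 genes were higher in SL LRC than in SL non-LRC on every array, at 1.79, 0.39 and 1.00 log2 units, of which Sc5d was called. Thrsp was at 0.42 there, whereas Fads2 went the other way, at -0.53 with overlapping groups. Of all genes, 47.5% had SL label groups that did not overlap, and label and array set cannot be told apart there.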
